A study of Mus musculus with 18 samples.

Results

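Small structured noncoding RNAs and the noncoding genes that carry or accompany them were followed in mouse cortex after a systemic immune challenge. The members were the 34 genes, of 13784 in each of 3 deposited tables, whose symbols name a Y RNA, a U-numbered RNA, a small nucleolar RNA (snoRNA), a small Cajal body RNA, the RNA subunit of RNase P or RNase MRP, a snoRNA host gene, a miRNA host gene, or the nuclear RNAs Malat1, Neat1, Meg3 and Mirg. Of these, 12 were structured small RNAs of 102 to 319 nt and 22 were longer host or nuclear RNAs of 581 to 20771 nt. The symbol rule also covered the 7SK and 7SL RNAs, the telomerase RNA, Rian and single miRNA genes, for which the tables held 0 genes under such symbols, so no miRNA was measured here. The set was chosen by symbol with the LPS log2 fold changes and FDR values of these tables already known, so the LPS values below describe the members and support no claim about the family.

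Cortex RNA came from 18 mice aged 4 to 6 months, in groups of 5 astrocyte Chd8 conditional knockout (cKO) mice given lipopolysaccharide (LPS), 4 cKO mice given saline, 5 control mice given LPS and 4 control mice given saline. LPS, a cell wall component of Gram-negative bacteria that sets off innate immunity, was injected into the abdominal cavity at 5 mg/kg, and tissue was taken 72 hours later. The labels do not give the Cre driver, the floxed allele, the controls' genotype, the sex of the mice or a batch, and they describe RNA extraction for LPS-treated mice alone. The study asked how loss of the chromatin remodeller Chd8 in astrocytes alters transcription at baseline and in neuroinflammation.

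These RNAs work as parts of ribonucleoproteins. Box C/D and box H/ACA snoRNAs guide methylation and pseudouridylation of ribosomal RNA, small Cajal body RNAs do the same for spliceosomal RNAs, U3 directs early cleavage of the ribosomal RNA precursor, RNase P trims tRNA precursors, and Y RNAs bind the quality control protein Ro60. Most mammalian snoRNAs are cut out of introns of other genes, while Y RNAs, RNase P RNA and RNase MRP RNA have their own RNA polymerase III promoters. Neat1 is the scaffold of paraspeckles, and Malat1 resides in nuclear speckles.

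The Y RNAs are shown because Rny1 rose in cKO mice and Rny3 fell in control mice after LPS. Rny3 and Rny1 are 102 and 112 nt long, lie on mouse chromosome 6 on opposite strands, and share 81 of 113 aligned positions (71.7%). Capitals mark aligned identical runs of at least 7 bases, of which there were 3. Gene sequences are GENCODE M21 transcripts (GRCm38), where all 34 members were found by gene ID.
Rny3: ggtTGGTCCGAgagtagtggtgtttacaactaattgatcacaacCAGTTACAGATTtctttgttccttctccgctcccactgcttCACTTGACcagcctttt
Rny1: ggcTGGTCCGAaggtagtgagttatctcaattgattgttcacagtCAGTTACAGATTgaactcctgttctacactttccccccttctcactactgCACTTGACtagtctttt

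The box H/ACA snoRNAs Snora73a and Snora73b are shown because their counts may not be separable. Both are 205 nt long on chromosome 4 and differ at 7 positions, given in capitals, with 96.6% identity. Reads from either copy can map to the other, so each value below is uncertain by copy.
Snora73a: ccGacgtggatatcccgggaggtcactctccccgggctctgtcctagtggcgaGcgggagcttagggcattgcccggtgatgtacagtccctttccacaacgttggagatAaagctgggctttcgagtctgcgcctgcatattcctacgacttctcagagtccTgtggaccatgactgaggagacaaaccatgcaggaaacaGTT
Snora73b: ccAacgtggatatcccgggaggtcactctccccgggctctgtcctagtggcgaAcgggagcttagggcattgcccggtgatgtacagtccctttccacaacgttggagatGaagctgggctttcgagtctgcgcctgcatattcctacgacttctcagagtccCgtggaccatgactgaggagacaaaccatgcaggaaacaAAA

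The box C/D snoRNA Snord17 (238 nt, chromosome 2) and the U3 RNA Rnu3a (213 nt, chromosome 10) had the largest called rises among the C/D-type members after LPS. Capitals mark the first TGATGA and the last CTGA of the transcript strand, the letters of the C and D boxes that box C/D proteins recognise. In the 33 small RNAs of the tables with a sequence, TGATGA stood in 10 (30.3%) and CTGA in 21 (63.6%). A match describes letters and not a bound site.
Snord17: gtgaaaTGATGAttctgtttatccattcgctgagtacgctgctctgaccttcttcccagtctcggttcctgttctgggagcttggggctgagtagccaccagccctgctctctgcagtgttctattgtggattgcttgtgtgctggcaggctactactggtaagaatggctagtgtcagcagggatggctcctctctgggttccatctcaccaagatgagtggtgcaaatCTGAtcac
Rnu3a: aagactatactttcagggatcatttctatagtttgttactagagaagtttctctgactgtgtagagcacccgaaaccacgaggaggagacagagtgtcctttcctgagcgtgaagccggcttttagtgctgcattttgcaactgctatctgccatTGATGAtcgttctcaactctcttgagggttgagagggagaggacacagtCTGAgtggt

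The tables hold no value per library, so the level of each group was back-calculated in CPM (reads of a gene scaled to library size) from the deposited fold change and mean log2 CPM, and depth per library is unknown. Standard errors (SE) of fold changes are the absolute log2 fold change over the root of the deposited F, and a gene was called at an FDR below 0.05. For a difference of LPS responses, cKO minus control, the SE instead rests on the normal quantile of each deposited p-value. Chd8 itself differed by 0.02 ± 0.05 (SE) between cKO and control cortex after LPS in the authors' deposited table (FDR = 0.901), and it rose after LPS by 0.45 ± 0.07 in cKO (FDR = 0.00597) and 0.34 ± 0.08 in control mice (FDR = 0.0312) in the authors' deposited tables; the tissue is whole cortex, and Chd8 was targeted in astrocytes alone. Summed levels of the 8 neuron markers lay between 7515 and 7931 CPM over the groups, and those of the 8 astrocyte markers between 3854 and 4586 CPM. Fewer cells of a type and less RNA per cell cannot be told apart in bulk tissue. The groups also differed in sex-linked transcripts. Y-linked Ddx3y stood at 52.5 CPM in cKO LPS, 58.6 CPM in cKO saline, 12.8 CPM in control LPS and 0.00687 CPM in control saline mice. Xist, made from the inactive X chromosome, stood at 60.0, 20.3, 161 and 177 CPM in the same order. The part of sex in the results was not tested.

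In cKO mice LPS raised most structured small RNAs. The authors' deposited table called 14 of 34 members, all of them higher, against 19.5% of all genes called, with 10.9% higher and 8.52% lower. The structured RNAs held 8 of the 14 calls, 11 of the 12 lay above 0, and their median log2 fold change was 1.16, against a median of 0.22 for the 22 longer RNAs and 0.00 for all genes (authors' deposited table). In control mice the authors' deposited table called 8 members higher and 1 lower, against 9.76% of all genes called, with 6.46% higher and 3.31% lower. The structured RNAs held 5 of the higher calls and the lower one there, with a median of 0.68, while the longer RNAs held the other 3 with a median of 0.19 (authors' deposited table). The direction matched in both genotypes for the 6 members called in each, namely Snord17, Snora73a, Snora73b, Snora74a, Snhg11 and Neat1. Snora73a and Snora73b may share reads, so they do not count as separate cases. No share of all genes called in both genotypes is given here, so this count describes the members alone. With a trend on gene length and GC content removed, 7 of the 8 structured calls in cKO mice ended, at adjusted p-values of 0.0505 to 0.0964, with Rnu3a kept. Their fold changes lay from 0.65 to 1.25 with the trend removed and from 0.81 to 1.39 as deposited. Snora73a was also lost in control mice (adjusted p = 0.0559).

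**Figure D1:**
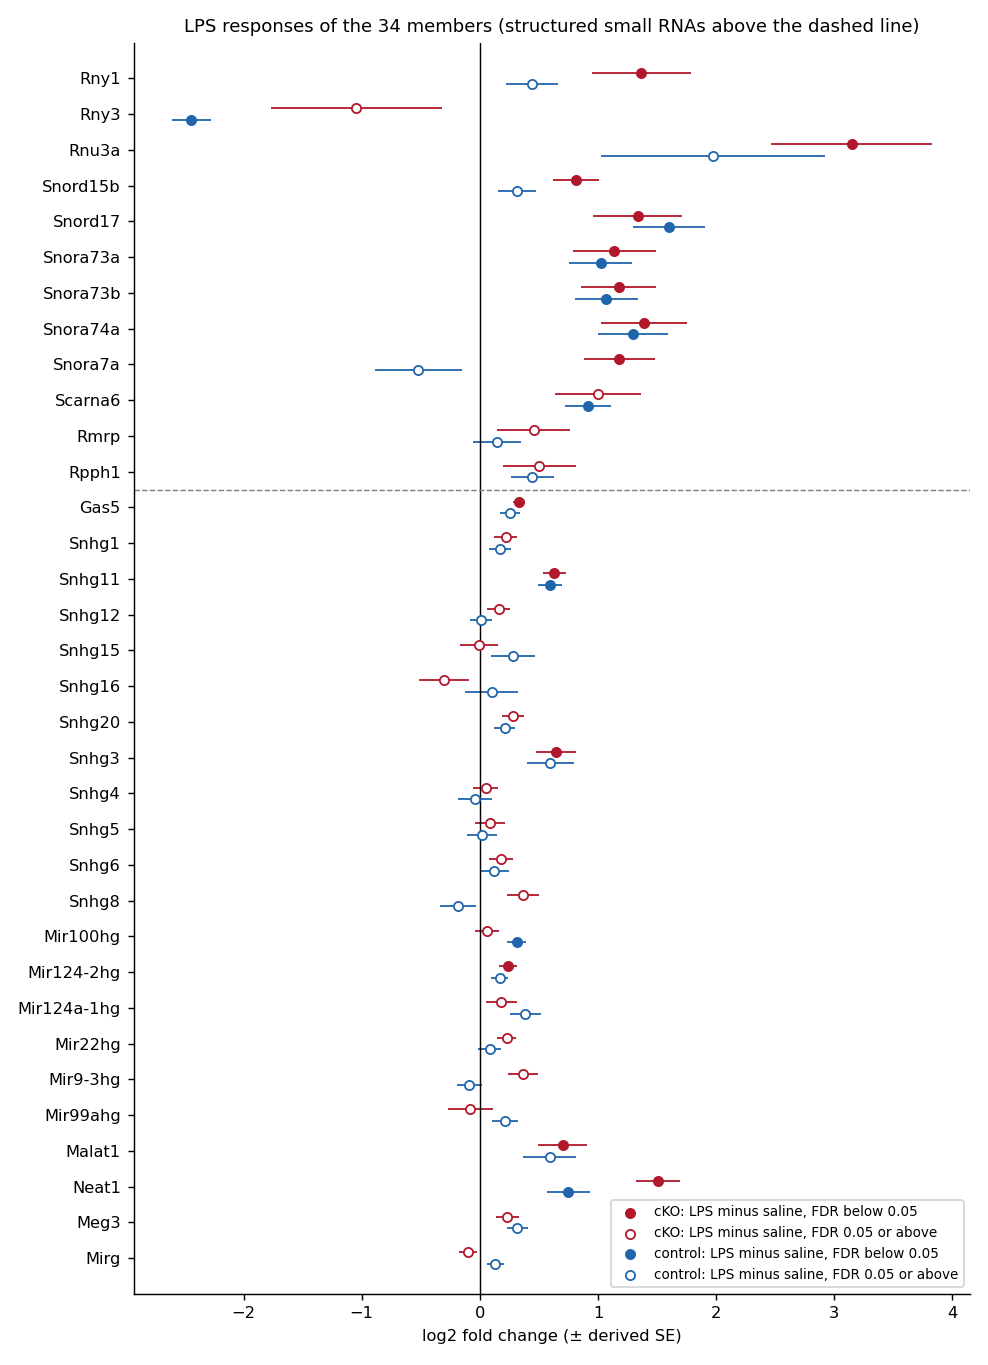
Log2 fold change (x axis, LPS minus saline, ± derived SE) of each of the 34 members in cKO mice (red, upper point) and control mice (blue, lower point); filled points passed an FDR below 0.05. Structured small RNAs above the dashed line spread from -1.05 to 3.15 in cKO and from -2.44 to 1.97 in control mice, and most longer RNAs lie closer to 0.

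Among the Y RNAs, Rny3 fell in control mice. Its level was 4.39 CPM in cKO LPS mice and 9.05 CPM in cKO saline mice, and 5.76 CPM in control LPS mice against 31.3 CPM in control saline mice. The control saline group thus stood above the other 3 groups, all under 10 CPM. The log2 fold change was -1.05 ± 0.72 in cKO (FDR = 0.326) and -2.44 ± 0.17 in control mice (FDR = 8.3e-05) in the authors' deposited tables. The difference of these responses, cKO minus control, was 1.40 ± 0.90 (adjusted p = 0.831 by the z test on the difference, Benjamini-Hochberg over all genes), so a change of response with genotype was not shown.

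Rny1, the other Y RNA, had fold changes above 0 in both genotypes. It stood at 20.9 CPM in cKO LPS and 8.11 CPM in cKO saline mice, and at 25.3 CPM in control LPS and 18.6 CPM in control saline mice. The cKO saline group was the low one. In the authors' deposited tables Rny1 rose by 1.37 ± 0.42 in cKO mice (FDR = 0.0472) and differed by 0.44 ± 0.22 in control mice (FDR = 0.217). The difference of responses was 0.92 ± 0.58 (adjusted p = 0.831).

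Of 6 measured genes for proteins that bind Y RNAs, 1 was higher and 2 were lower after LPS in cKO mice, against 19.5% of all genes called, and 1 was higher in control mice, against 9.76% (authors' deposited tables). Ro60 fell by 0.30 on the log2 scale in cKO mice (FDR = 0.0140) and Elavl4 by 0.22 (FDR = 0.0337) in the authors' deposited table. Pabpc1, the cytoplasmic poly(A) binding protein, rose by 0.38 ± 0.11 in cKO mice (FDR = 0.0453) and by 0.52 ± 0.10 in control mice (FDR = 0.0154) in the authors' deposited tables.

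**Figure D2:**
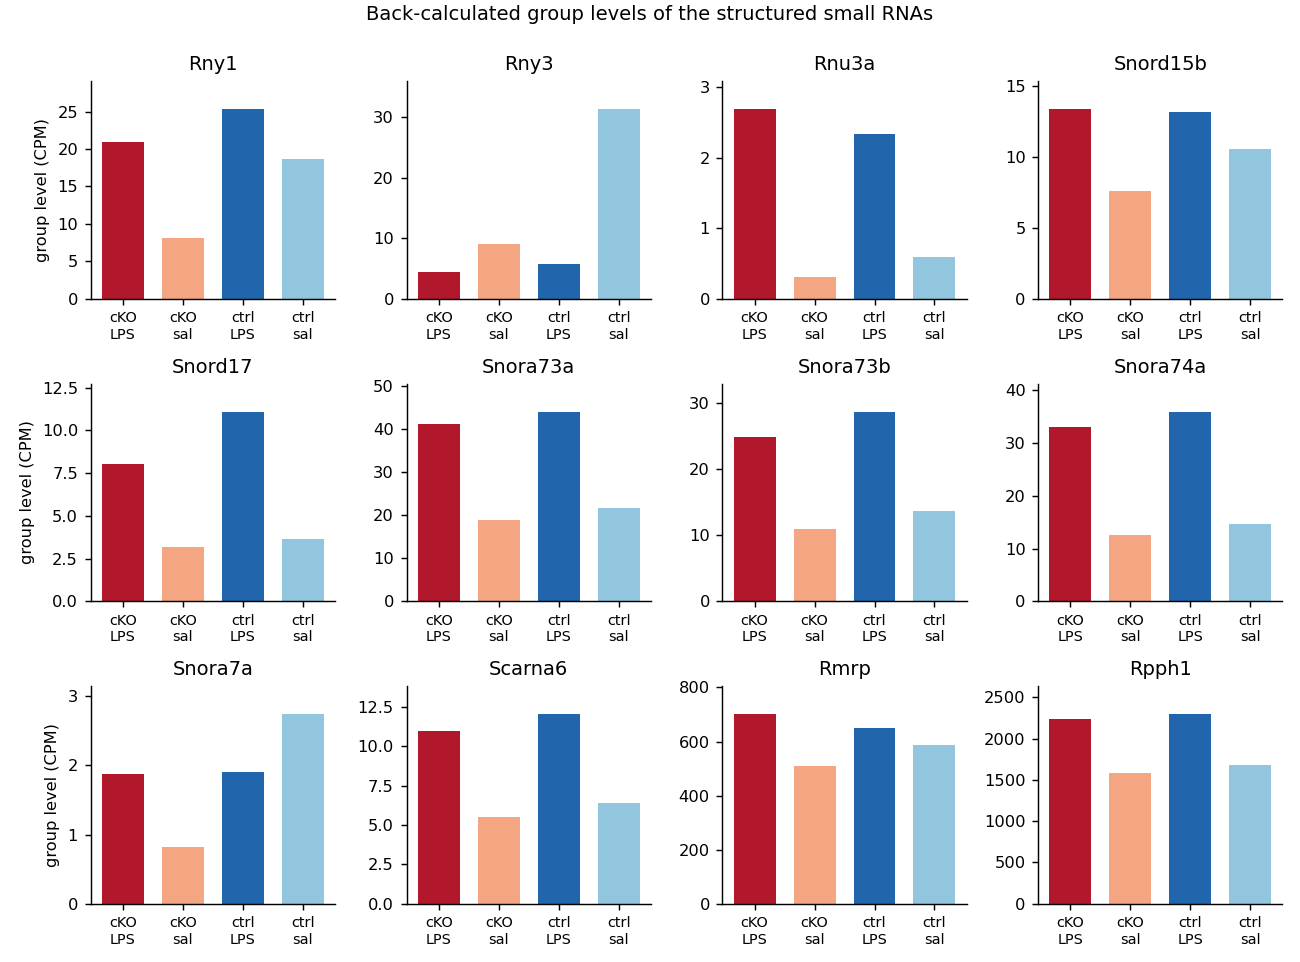
Back-calculated group level in CPM (y axis, from 0, a separate scale per panel) of the 12 structured small RNAs in cKO LPS, cKO saline, control LPS and control saline mice; these are single estimates per group without an error bar. In 10 panels the LPS bar exceeds the saline bar in both genotypes, the exceptions being Rny3 and Snora7a.

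Rnu3a, a gene for the U3 RNA, had the largest fold change of any member but low levels. It stood at 2.68 CPM in cKO LPS and 0.30 CPM in cKO saline mice, and at 2.33 CPM in control LPS and 0.59 CPM in control saline mice. Both saline groups were under 1 CPM. The authors' deposited tables give a rise of 3.15 ± 0.68 in cKO mice (FDR = 0.0159) and a difference of 1.97 ± 0.95 in control mice (FDR = 0.201). RefSeq lists 5 U3 genes and the tables held 1 of them, so reads shared among copies make this value uncertain.

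Of 24 protein genes of the U3 processome, the particle that cleaves the ribosomal RNA precursor, 2 rose and 3 fell in cKO mice in the authors' deposited table, near the 19.5% of all genes called. In control mice 0 of them were called, against 9.76% of all genes, where 2 had an unadjusted p below 0.05 in that table's edgeR output. Wdr46 rose by 0.52 ± 0.11 (FDR = 0.0163), while Pwp2 and Heatr1 each fell by 0.31 (both FDR = 0.0208) in cKO mice in the authors' deposited table.

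Of the 2 box C/D snoRNAs, both rose after LPS in cKO mice and 1 rose in control mice. Of all genes, 19.5% were called in cKO and 9.76% in control mice. Snord17, which guides ribosomal RNA methylation, stood at 8.04 CPM in cKO LPS and 3.18 CPM in cKO saline mice, and at 11.1 CPM in control LPS and 3.64 CPM in control saline mice. Both LPS groups lay above both saline groups. Snord17 rose by 1.34 ± 0.38 in cKO (FDR = 0.0362) and by 1.60 ± 0.31 in control mice (FDR = 0.0148) in the authors' deposited tables. Snord15b stood at 13.3 CPM in cKO LPS and 7.59 CPM in cKO saline mice, and at 13.2 CPM in control LPS and 10.6 CPM in control saline mice. It rose by 0.81 ± 0.20 in cKO mice (FDR = 0.0218), and its change in control mice was 0.32 ± 0.16 (FDR = 0.217), per the authors' deposited tables. Of the 10 genes for box C/D proteins and their assembly factors, Znhit6 alone was called in cKO mice, higher by 0.86 ± 0.15 (FDR = 0.0085). Ruvbl1 alone was called in control mice, where it fell by 0.24 (FDR = 0.0455), in the authors' deposited tables. Those counts also stand beside 19.5% and 9.76% of all genes called.

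Among the 4 box H/ACA snoRNAs, 3 rose after LPS in both genotypes, against 19.5% of all genes called in cKO and 9.76% in control mice. Snora73a stood at 41.2 CPM in cKO LPS and 18.7 CPM in cKO saline mice, and at 43.9 CPM in control LPS and 21.6 CPM in control saline mice. Its log2 fold change was 1.14 ± 0.35 in cKO (FDR = 0.0485) and 1.02 ± 0.27 in control mice (FDR = 0.0417) in the authors' deposited tables. Its near copy Snora73b, at 24.8, 10.99, 28.7 and 13.7 CPM in the same order of groups, rose by 1.18 ± 0.32 in cKO (FDR = 0.0312) and 1.07 ± 0.27 in control mice (FDR = 0.0377) in the authors' deposited tables. Snora74a stood at 33.0 CPM in cKO LPS and 12.6 CPM in cKO saline mice, and at 35.9 CPM in control LPS and 14.6 CPM in control saline mice. It rose by 1.39 ± 0.37 in cKO (FDR = 0.0296) and 1.30 ± 0.30 in control mice (FDR = 0.0301) in the authors' deposited tables. For these 3 RNAs the 2 LPS groups had similar levels and so did the 2 saline groups. The difference of responses was 0.09 to 0.11, with SEs of 0.54 to 0.63, so equal responses were not shown.

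Snora7a, the fourth H/ACA snoRNA, differed from these in its pattern over the groups. It stood at 1.87 CPM in cKO LPS and 0.83 CPM in cKO saline mice, and at 1.91 CPM in control LPS and 2.74 CPM in control saline mice. The lowest and the highest levels were those of the saline groups. It rose by 1.18 ± 0.30 in cKO mice (FDR = 0.0257) and differed by -0.52 ± 0.37 in control mice (FDR = 0.378) in the authors' deposited tables. The difference of responses was 1.70 ± 0.56 (adjusted p = 0.433 over all genes), so it failed the correction. With SE from F in place of the p-value the adjusted p was 0.269.

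The small Cajal body RNA Scarna6 and the RNase subunits completed the structured set. Scarna6 stood at 10.998 CPM in cKO LPS and 5.50 CPM in cKO saline mice, and at 12.0 CPM in control LPS and 6.40 CPM in control saline mice. It rose by 0.91 ± 0.19 in control mice (FDR = 0.0234), and a like value of 1.00 ± 0.37 in cKO mice missed the threshold (FDR = 0.0817) in the authors' deposited tables. Rpph1, the catalytic RNA of RNase P, stood at 2239 CPM in cKO LPS and 1580 CPM in cKO saline mice, and at 2292 CPM in control LPS and 1685 CPM in control saline mice. Its changes of 0.50 ± 0.31 in cKO (FDR = 0.271) and 0.44 ± 0.18 in control mice (FDR = 0.142) were not called in the authors' deposited tables. Rmrp, the RNA of RNase MRP, had changes of 0.45 ± 0.31 and 0.15 ± 0.20 in cKO and control mice (FDR = 0.314 and 0.671, authors' deposited tables), and it overlaps a second annotated Rmrp gene, so its reads may be split. That second gene differed by 0.19 ± 0.29 in cKO and -0.41 ± 0.26 in control mice (FDR = 0.674 and 0.327, authors' deposited tables). Of 11 genes for RNase P and RNase MRP proteins, 0 were called in either genotype in the authors' deposited tables of edgeR results. Of all genes, 19.5% were called in cKO and 9.76% in control mice. Among the 11, 1 in cKO and 2 in control mice had an unadjusted edgeR p below 0.05.

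The 4 RNA polymerase III transcripts (Rny1, Rny3, Rmrp and Rpph1) had a median of 0.48 in cKO and 0.29 in control mice, against 1.18 and 1.02 for the 7 intron-encoded small RNAs, in the authors' deposited tables. Of 23 genes for RNA polymerase III and its factors, 2 rose and 1 fell in cKO mice and 1 rose in control mice, against 19.5% and 9.76% of all genes called (authors' deposited tables). The subunit Polr3c rose by 0.81 ± 0.11 in cKO mice (FDR = 0.0050), and Gtf3c2, a subunit of TFIIIC, rose by 0.70 ± 0.12 in cKO (FDR = 0.0072) and 0.64 ± 0.14 in control mice (FDR = 0.0287) in the authors' deposited tables. Gtf3c3, another TFIIIC subunit, fell by 0.32 in cKO mice (FDR = 0.0118) in the authors' deposited table.

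Each intron-encoded small RNA could be set beside the gene that holds it. In cKO mice the small RNA had the higher fold change in 7 of 7 pairs, by 0.49 to 1.45, and in control mice in 6 of 7, from -0.61 to 1.67 (authors' deposited tables). The median over the 6 host genes was 0.03 in cKO and -0.04 in control mice, against 1.18 and 1.02 for the small RNAs (authors' deposited tables). These pairs come from the same libraries, and the gap was not tested. Snora73a and Snora73b may share reads and are both paired with Snhg3, so their pairs do not count as separate cases.

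**Figure D3:**
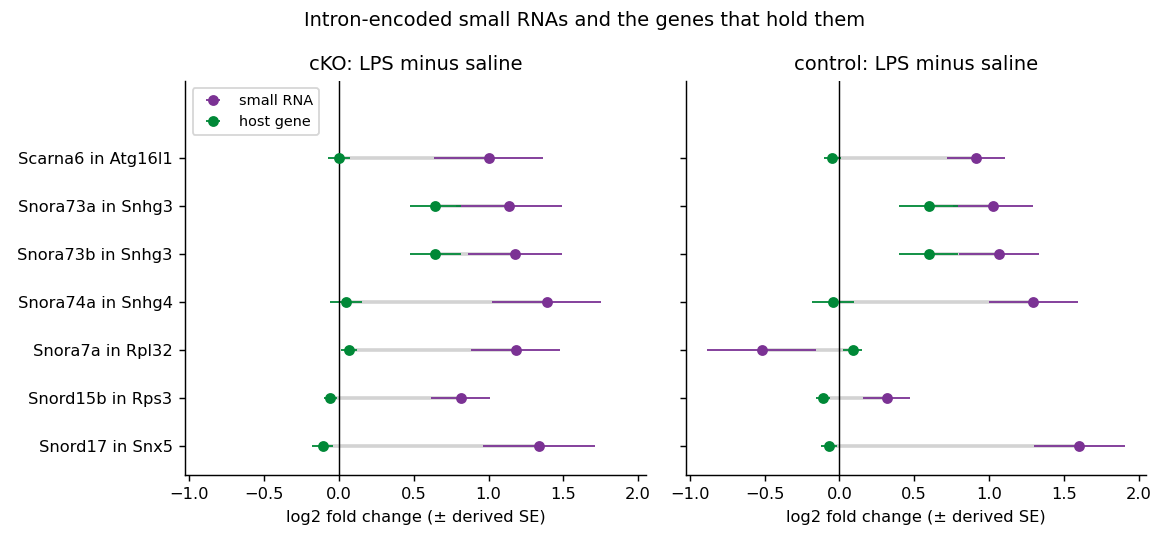
Log2 fold change after LPS (x axis, ± derived SE) of 7 intron-encoded small RNAs (purple) and their host genes (green), in cKO mice (left panel) and control mice (right panel). Apart from Snhg3, host genes lie between -0.11 and 0.09, and the small RNAs lie to their right except Snora7a in control mice.

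Snora74a lies in Snhg4, which differed by 0.05 ± 0.11 in cKO and -0.04 ± 0.14 in control mice (FDR = 0.773 and 0.871) in the authors' deposited tables. Snord17 lies in an intron of Snx5, a sorting nexin, which differed by -0.11 ± 0.07 in cKO and -0.07 ± 0.06 in control mice (FDR = 0.288 and 0.450; authors' deposited tables). The ribosomal protein genes Rps3, host of Snord15b, and Rpl32, host of Snora7a, had changes of -0.06 ± 0.05 and 0.07 ± 0.05 in cKO mice, and of -0.11 ± 0.05 and 0.09 ± 0.07 in control mice, none called in the authors' deposited tables. Snora73a and Snora73b are annotated within both Snhg3 and Rcc1. Snhg3 rose by 0.65 ± 0.17 in cKO mice (FDR = 0.0296) and differed by 0.60 ± 0.20 in control mice (FDR = 0.0822), while Rcc1, a nucleotide exchange factor of Ran, differed by -0.14 ± 0.11 and -0.22 ± 0.12 in the authors' deposited tables. Snora73a, Snora74a, Snora7a and Snord15b overlap an exon of an annotated host transcript, so part of their reads can be assigned to the host or the reverse.

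Of the 12 snoRNA host genes, 3 were called in cKO mice and 1 in control mice, all higher, in the authors' deposited tables, shares near the 19.5% and 9.76% of all genes called. Snhg11, a brain-enriched gene that the annotation lists as protein-coding, stood at 876 CPM in cKO LPS and 566 CPM in cKO saline mice, and at 874 CPM in control LPS and 580 CPM in control saline mice. It rose by 0.63 ± 0.10 in cKO (FDR = 0.0062) and 0.59 ± 0.10 in control mice (FDR = 0.00996) in the authors' deposited tables. Gas5, whose introns hold box C/D snoRNAs and whose spliced RNA is a substrate of nonsense-mediated decay, stood at 87.6 CPM in cKO LPS and 69.8 CPM in cKO saline mice, and at 80.5 CPM in control LPS and 67.5 CPM in control saline mice. It rose by 0.33 ± 0.05 in cKO mice (FDR = 0.0062), with 0.25 ± 0.08 in control mice (FDR = 0.0818), in the authors' deposited tables. The other 9 were not called, with Snhg20 nearest in cKO mice at 0.28 ± 0.09 (FDR = 0.0619), and the class ran from -0.31 to 0.65 in cKO and from -0.19 to 0.60 in control mice (authors' deposited tables). Of 14 nonsense-mediated decay factors, 2 were called in cKO mice, against 19.5% of all genes. Upf3b rose by 0.42 ± 0.09 (FDR = 0.0164) and Smg1, the kinase of Upf1, fell by 0.35 (FDR = 0.0092) in the authors' deposited table. In control mice 0 were called in the authors' deposited table, against 9.76% of all genes, where 3 had an unadjusted edgeR p below 0.05.

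The nuclear body RNAs Neat1 and Malat1 had the largest fold changes among the longer members in cKO mice. Neat1 stood at 102 CPM in cKO LPS and 35.7 CPM in cKO saline mice, and at 83.0 CPM in control LPS and 49.4 CPM in control saline mice. Both LPS groups were above both saline groups, with the widest gap in cKO mice. Neat1 rose by 1.51 ± 0.19 in cKO (FDR = 0.0041) and 0.75 ± 0.18 in control mice (FDR = 0.0346) in the authors' deposited tables. The difference of responses was 0.76 ± 0.42 (adjusted p = 0.798), so a larger response in cKO mice was not shown. Malat1 stood at 13483 CPM in cKO LPS and 8303 CPM in cKO saline mice, and at 13950 CPM in control LPS and 9264 CPM in control saline mice. It rose by 0.70 ± 0.21 in cKO mice (FDR = 0.0443), and the value of 0.59 ± 0.22 in control mice was not called (FDR = 0.116), in the authors' deposited tables.

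Of 14 protein genes of paraspeckles and nuclear speckles, 6 rose and 1 fell in cKO mice, and 3 rose and 1 fell in control mice, in the authors' deposited tables, against 19.5% and 9.76% of all genes called. Srrm2, a speckle scaffold, rose by 0.46 ± 0.10 in cKO (FDR = 0.0161) and 0.40 ± 0.07 in control mice (FDR = 0.0079) in the authors' deposited tables. Pspc1, a core paraspeckle protein, rose by 0.39 ± 0.08 in cKO mice (FDR = 0.0113) and differed by 0.02 ± 0.10 in control mice (FDR = 0.934) in the authors' deposited tables. Nudt21, a subunit of the cleavage factor that selects poly(A) sites, fell by 0.22 in cKO (FDR = 0.0236) and by 0.24 in control mice (FDR = 0.0308) in the authors' deposited tables.

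Marker genes of cell types went in differing directions after LPS. Their calls stand against 19.5% of all genes called in cKO and 9.76% in control mice. Of 8 neuron markers 3 rose in cKO and 1 in control mice in the authors' deposited tables. Of 8 oligodendrocyte markers 0 were called in either genotype in the authors' deposited edgeR tables. In each genotype 1 of them had an unadjusted edgeR p below 0.05. Of 8 microglia markers, 4 rose and 1 fell in cKO mice and 6 rose in control mice in the authors' deposited tables; their summed level was 438 CPM in cKO LPS, 327 CPM in cKO saline, 528 CPM in control LPS and 323 CPM in control saline mice. Of 8 endothelial markers, 5 and 6 rose in cKO and control mice (authors' deposited tables), with sums of 341, 211, 363 and 203 CPM in the same order. Of 8 astrocyte markers 3 fell in cKO mice, namely Aqp4, Slc1a3 and Slc1a2, while 5 lay above 0 (authors' deposited table). In control mice Gfap rose by 1.35 ± 0.12 (FDR = 0.000286) and Aqp4 fell (-0.22 ± 0.05, FDR = 0.0385) in the authors' deposited table. Gfap had 1.06 ± 0.34 in cKO mice (FDR = 0.0548, authors' deposited table). The astrocyte sums were 4093, 4586, 3854 and 3974 CPM, with Slc1a2 alone at 2150, 2667, 2217 and 2351 CPM. Of 6 choroid plexus markers 3 were measured, with sums of 22.6, 117, 11.8 and 115 CPM, and 0 were called in the authors' deposited edgeR tables, where 0 in cKO and 1 in control mice had an unadjusted p below 0.05. Ttr gave most of each sum, at 15.2, 108, 6.46 and 106 CPM, with SEs of 1.86 in cKO and 1.96 in control mice. Kl stood at 4.25, 5.59, 3.23 and 5.44 CPM, and Prlr at 3.10, 3.53, 2.07 and 4.02 CPM. The part of these cell types in the changes of Neat1, Malat1 and the small RNAs was not tested.

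The miRNA host genes are precursors from which mature miRNAs are cut. RefSeq (GRCm38.p6) places 3 miRNA genes each in Mir100hg and Mir99ahg. Their members are shown because the 2 hosts share seeds (bases 2 to 8, in capitals): miR-100-5p and miR-99a-5p have the seed ACCCGUA, and both hosts encode miR-125b-5p.
mmu-miR-100-5p: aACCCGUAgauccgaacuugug
mmu-miR-99a-5p: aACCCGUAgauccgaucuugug
mmu-miR-125b-5p: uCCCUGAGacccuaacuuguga

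Of the 6 miRNA host genes, 1 was called in each genotype, both higher, against 19.5% of all genes in cKO and 9.76% in control mice (authors' deposited tables). Mir100hg stood at 39.2 CPM in cKO LPS and 37.6 CPM in cKO saline mice, and at 46.5 CPM in control LPS and 37.5 CPM in control saline mice. Control LPS mice were thus above the other 3 groups. It differed by 0.06 ± 0.10 in cKO mice (FDR = 0.716) and rose by 0.31 ± 0.08 in control mice (FDR = 0.0418) in the authors' deposited tables. The difference of responses was -0.25 ± 0.15 (adjusted p = 0.821). Mir99ahg, the host with the shared seed, had uncalled changes of -0.08 ± 0.19 in cKO and 0.21 ± 0.11 in control mice (FDR = 0.785 and 0.223; authors' deposited tables).

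Mir124-2hg, a host of the neuronal miRNA miR-124, stood at 65.2 CPM in cKO LPS and 55.3 CPM in cKO saline mice, and at 59.2 CPM in control LPS and 52.8 CPM in control saline mice. It rose by 0.24 ± 0.07 in cKO mice (FDR = 0.0473), with 0.17 ± 0.07 in control mice (FDR = 0.172), in the authors' deposited tables. Mir124a-1hg, another host of that miRNA, had 0.18 ± 0.13 in cKO (FDR = 0.346) and 0.38 ± 0.13 in control mice (FDR = 0.0900) in the authors' deposited tables. Of 15 genes for miRNA processing and effector proteins, 2 rose and 1 fell in cKO mice and 3 rose in control mice in the authors' deposited tables, against 19.5% and 9.76% of all genes called. Tarbp2, a partner of Dicer, rose by 0.39 ± 0.10 in cKO mice (FDR = 0.0249) and Tnrc6a, an Argonaute partner, by 0.32 ± 0.06 in control mice (FDR = 0.0112) in the authors' deposited tables.

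The imprinted Dlk1-Dio3 region on chromosome 12 gave 2 members, and neither was called. Meg3 stood at 2617 CPM in cKO LPS and 2227 CPM in cKO saline mice, and at 2716 CPM in control LPS and 2180 CPM in control saline mice. Its changes were 0.23 ± 0.10 in cKO (FDR = 0.127) and 0.32 ± 0.09 in control mice (FDR = 0.0573), the uncalled value nearest the threshold there, in the authors' deposited tables. Mirg, which holds 14 miRNA genes in RefSeq, had -0.10 ± 0.08 in cKO and 0.13 ± 0.07 in control mice (FDR = 0.362 and 0.267; authors' deposited tables). Of 5 measured protein genes of the region, Begain alone was called, higher by 0.43 ± 0.10 in cKO mice (FDR = 0.0204) in the authors' deposited table. Of all genes, 19.5% were called in cKO and 9.76% in control mice.

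After LPS the genotypes did not differ at the threshold for any member. In the authors' deposited table of cKO against control mice (edgeR) 0 of 34 members were called, against 0.00725% of all genes, and 6 members had an unadjusted p below 0.05. The lowest FDR was that of Snhg8, at 10.3 CPM in cKO and 7.19 CPM in control mice after LPS, with a difference of 0.52 ± 0.16 (FDR = 0.299) in the authors' deposited table. For the 12 structured RNAs the median was -0.11 and 0 had an unadjusted p below 0.05, with a median SE of 0.39, against 0.11 for all genes, so differences of that size were not resolvable for most of them (authors' deposited table). Neat1 differed by 0.38 ± 0.20 (FDR = 0.464) and Snord17 by -0.55 ± 0.36 (FDR = 0.568) in the authors' deposited table.

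**Figure D4:**
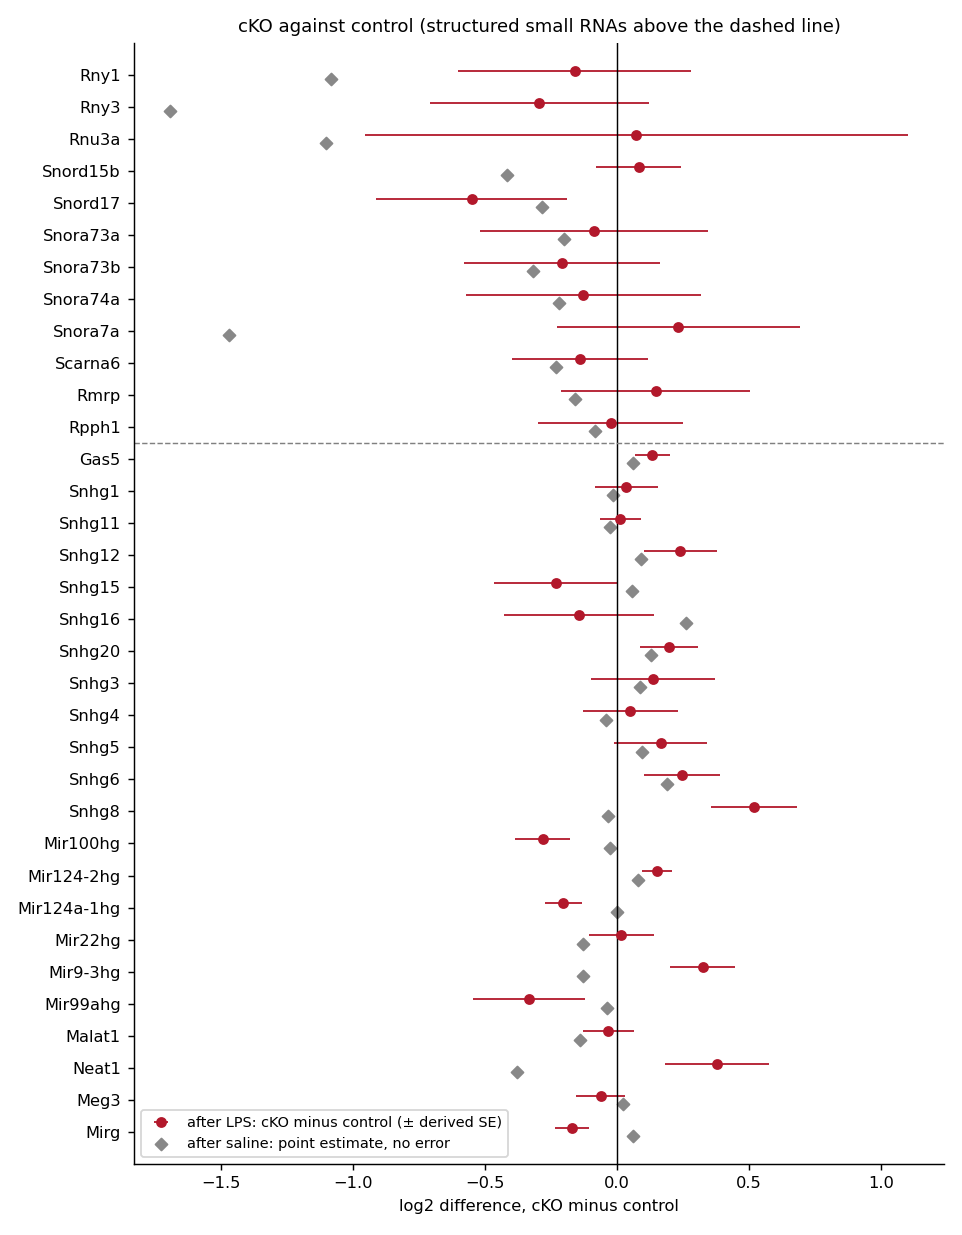
Log2 difference, cKO minus control (x axis), of each member after LPS (red circles, ± derived SE) and after saline (grey diamonds, point estimates without an error). The saline estimates of the 12 structured RNAs all lie below 0, from -1.69 to -0.08, and none of the differences after LPS was called.

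The responses to LPS, tested against each other, also gave 0 of 34 members, against 0.00725% of all genes; 4 members had an unadjusted p below 0.05 in this z test, namely Snora7a, Snhg8, Mir9-3hg and Mirg, named after their values were seen. No deposited table compares the genotypes after saline, and a point estimate without a test was formed from the 3 fold changes. For the structured RNAs it lay below 0 in 12 of 12, with a median of -0.30. It was also below 0 in 18 of the 21 small RNAs outside the symbol rule, with a median of -0.37, and in 2 of 2 mitochondrial ribosomal RNAs, with a median of -0.33. Among the longer members it was below 0 in 11 of 22, with a median of 0.01, against 0.00 for all genes. The lowest estimates were -1.69 for Rny3, -1.47 for Snora7a, -1.10 for Rnu3a and -1.08 for Rny1. The estimates of the 12 RNAs rest on the same libraries of all 4 groups, LPS mice included, and the 12 are not replicates. The Y-linked levels given above differ most between the saline groups.

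Other small RNAs and the mitochondrial ribosomal RNAs give the setting for these values. The tables held 21 further genes annotated as small RNAs under other symbols or none. Of these, 5 rose and 1 fell in cKO mice, against 19.5% of all genes called, with 10.9% higher and 8.52% lower (authors' deposited table). A further 7 rises and 2 falls were called in control mice, against 9.76% of all genes, with 6.46% higher and 3.31% lower (authors' deposited table). Their medians were 0.62 in cKO and 0.24 in control mice. Scarna2, a small Cajal body RNA of 414 nt, fell by 0.36 in cKO (FDR = 0.0448) and by 0.40 in control mice (FDR = 0.00853) in the authors' deposited tables. Rn7s6, listed without a symbol in the tables, rose by 0.98 ± 0.19 in control mice (FDR = 0.0155), with 0.93 ± 0.36 in cKO mice (FDR = 0.0926), in the authors' deposited tables. The 57 protein-coding genes with a longest transcript under 600 nt had medians of -0.10 in cKO and -0.16 in control mice, with 24 and 15 of them above 0 (authors' deposited tables).

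The ribosomal RNAs of mitochondria moved in the same direction. mt-Rnr1 rose by 2.43 ± 0.60 in cKO mice (FDR = 0.0241), with 1.52 ± 0.79 in control mice (FDR = 0.234), and mt-Rnr2 rose by 1.80 ± 0.46 in cKO mice (FDR = 0.0260), with 1.26 ± 0.60 in control mice (FDR = 0.193), in the authors' deposited tables. Ribosomal RNA was depleted in library preparation, and recovery of RNAs shorter than a standard library fragment was not measured; their part in the small RNA values was not tested. The treatment groups and any difference in extraction or preparation cannot be told apart from the labels.

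**Figure D5:**
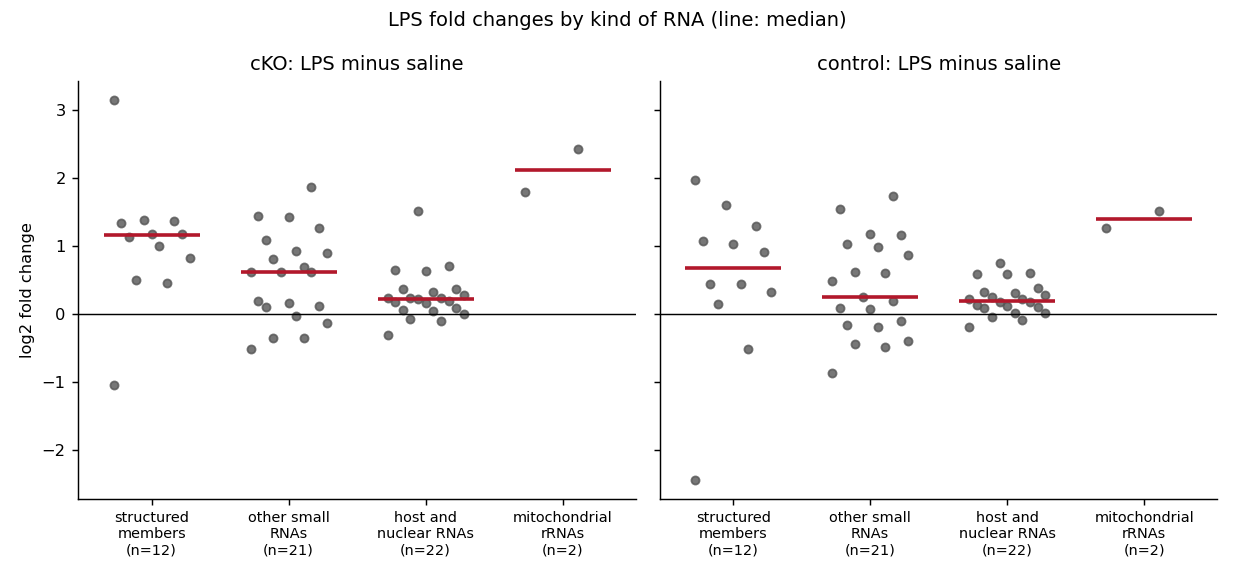
Log2 fold change after LPS (y axis) of the 12 structured members, 21 other small RNAs, 22 host and nuclear RNAs and 2 mitochondrial ribosomal RNAs, in cKO mice (left panel) and control mice (right panel); each point is 1 gene and the red line is the median. Medians of the structured members are 1.16 and 0.68 in cKO and control mice, those of the host and nuclear RNAs 0.22 and 0.19.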

How the data were processed

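Cortex total RNA was column-extracted, depleted of ribosomal RNA and made into stranded libraries, per the labels' protocols. The submitters' processing notes name cutadapt 3.5, STAR, RSEM and edgeR 3.30.3 with genome build GRCm39, without role or order, and name no gene filter. The authors deposited 3 tables of comparisons holding, per the file headers, the log2 fold change, F statistic (a score), p-value, FDR and average log2 CPM of 13784 genes, of which 757 carry no symbol. Values per library were not used here, so depth per library is unknown, no spread between mice could be computed and no library could be left out; the p-values rest on separate mice only as far as the labels tell.

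The headers do not give the direction of the fold changes. Taken as LPS minus saline and cKO minus control, they gave back-calculated group levels whose gap between tables had an SD over genes of 0.0503 (cKO LPS) and 0.0537 (control LPS); with any sign turned the larger SD was 0.226 or more. The levels assume libraries of equal weight and can differ by up to 0.46 on the log2 scale between tables for a member (Rnu3a; median 0.04 and 0.03). Calls are the deposited FDR below 0.05. The difference of LPS responses was tested per gene as a z with SE from the normal quantile of each deposited p-value, Benjamini-Hochberg adjusted over all genes. On simulated tables for that difference (13784 genes, 200 changed, 20 runs) it recovered 27.4% of genes changed by 0.5, 73.4% by 1 and 95.6% by 2 on the log2 scale, and 2.07% of its calls were unchanged genes. The changed genes were drawn from all genes, with median SEs of 0.09 in cKO and 0.09 in control mice. Median SEs of the structured members were 0.36 and 0.24, so these shares do not describe them, and their own recovery was not simulated.

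Groups were read from the genotype label, because every title carries the word for saline. Lengths, biotypes, hosts and RNA sequences came from GENCODE M21 (GRCm38) by gene ID, and miRNA sequences from RefSeq. Named are members called in any comparison, those with an absolute log2 fold change of at least 1, the member with the highest mean log2 CPM in each class, those nearest the threshold, host genes, and up to 3 called genes per partner list. Members and lists were chosen with earlier results of these data known. Alternatives tried were an FDR of 0.10, a fold change of at least 1.5, a mean log2 CPM of at least 1, leaving out the protein-coding member, centring, removing a length and GC trend, and SE from F. Python 3.11.15, pandas 2.3.3, scipy 1.17.1 and statsmodels 0.14.6 were used.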

Additional observations from a re-analysis of the deposited data

How the results depend on the processing

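Removing a length and GC trend was the setting that moved a count of calls: for LPS in cKO mice 7 members were called in place of 14, as 7 small RNAs went to adjusted p-values of 0.0505 to 0.0964 (Snora74a lowest, Snora73a highest), and over all genes the calls went to 2015 in place of 2681. Their fold changes kept their sign, and the structured median was 0.96 with the trend removed. In control mice Snora73a was lost under it (adjusted p = 0.0559). The cause was not tested. The median over structured small RNAs alone was 1.16 in cKO and 0.68 in control mice, in place of 0.35 and 0.27 over all 34 members, by construction of the set. Under the other settings the counts stayed within 1.5 times, at 12 to 19 for cKO and 8 to 13 for control mice, and 0 members were called for genotype after LPS or for the difference of responses. The share over all genes moved more. At an FDR of 0.10 it was 29.7% in cKO and 18.6% in control mice, beside 19 and 13 members. At a fold change of at least 1.5 it was 4.71% and 3.61%, beside 12 and 8 members. No paired analysis was possible because the tables hold no value per library, so leaving out a replicate and a replicate block were not run. Depth per library is unknown, so its limit on low RNAs could not be given.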
